A study of Mus musculus with 6 samples.

Results

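The genes examined here encode the aminoacyl-tRNA synthetases of mouse brown fat, 20 of them for the cytosolic enzymes and 16 for the mitochondrial ones. They were chosen by gene symbol, and all 36 were found among the 12966 genes listed in the table. FPKM counts sequenced fragments relative to the length of the transcript and the size of the library. With means of 1 FPKM or more, all 36 entered the test, which covered 11397 genes in all. RNA was sequenced from brown adipose tissue of male C57BL/6J mice at 10 weeks of age. The control group (Ctrl, 3 libraries) was Bscl2f/f, that is, homozygous for a floxed Bscl2 allele without Cre. The knockout group (BKO, 3 libraries) was Bscl2f/f Ucp1Cre, so the same floxed alleles were carried together with a Cre transgene under the Ucp1 promoter, which is active in brown adipocytes. Other cells of the tissue are not targeted by this Cre. Cre was present in BKO only, so its own effect and that of losing Bscl2 cannot be told apart. The labels do not say that each library came from its own animal, so the p-values describe only how these samples scatter, part of which may be technical.

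An aminoacyl-tRNA synthetase joins an amino acid to the tRNA that carries its anticodon, which supplies the ribosome with charged tRNA. Cytosolic and mitochondrial ribosomes use separate tRNAs, and most amino acids have a nuclear gene for each compartment, the mitochondrial enzyme being imported. Brown adipocytes are rich in mitochondria, whose own ribosomes make subunits of the respiratory chain. Several cytosolic synthetase genes are known targets of ATF4, the transcription factor of the amino acid response and of the integrated stress response. Bscl2 encodes seipin, a protein of the endoplasmic reticulum that acts in lipid droplet formation.

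The targeted gene was measured first. Bscl2 stood at 116, 104 and 106 FPKM in Ctrl-1 to Ctrl-3 and at 16.5, 16.9 and 18.9 FPKM in BKO-1 to BKO-3. The groups did not overlap, and Bscl2 fell by 2.57 on the log2(FPKM + 1) scale with an SE of 0.0788 (adjusted p = 3.95e-05, limma, Benjamini-Hochberg). An exact two-sided permutation test gave p = 0.1, which no comparison of 3 with 3 libraries can go below. Over all tested genes, 18 were called higher and 1 lower in BKO, which is 0.167% of genes. Tissue identity was checked with 14 brown adipocyte markers, all listed, and Ucp1, the uncoupling protein of brown fat, ranged from 2484 to 3498 FPKM. Most macrophage markers stood higher in BKO and markers of skeletal muscle differed between single libraries, and their values are given beside the results they move with. One library stood apart: in BKO-3 the FPKM summed to 2808870, against 1119230 to 1617960 in the others. Rows for 17 mitochondrial tRNAs made up 45.1% to 74.4% of these sums, with the highest share in BKO-3. BKO-3 also held no value above 0 below 0.486 FPKM, whereas all synthetase values lay at 1.82 FPKM or more. In bulk tissue, fewer cells of a type and less RNA per cell cannot be told apart.

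Among the cytosolic enzymes, Gars, the glycyl-tRNA synthetase whose gene also supplies the mitochondrial form, was the most abundant transcript, with a mean of 41.4 ± 2.70 FPKM (SD, n = 6 libraries). Sars, the seryl-tRNA synthetase, followed at 31.9 ± 2.68 FPKM, and Dars, the aspartyl-tRNA synthetase, at 27.1 ± 0.763 FPKM. Each of these stood apart from its neighbours in the order of levels, with no overlap over the 6 libraries. Kars (23.3 FPKM), the lysyl enzyme that also serves both compartments, Nars (22.9 FPKM), Mars (21.9 FPKM) and Qars (21.0 FPKM) formed a second tier with overlapping ranges. Here 7 of the 20 cytosolic transcripts lay above 20 FPKM, 6 between 10 and 20, and 7 below 10. The lowest were Lars, the leucyl enzyme, at 5.67 ± 0.360 FPKM and Cars, the cysteinyl enzyme, at 5.37 ± 0.887 FPKM. The span from Gars to Cars was 7.70-fold, and 14 of 19 neighbours in the order did not separate beyond their ranges. The order compares transcript levels per length, not amounts of protein.

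**Figure D1:**
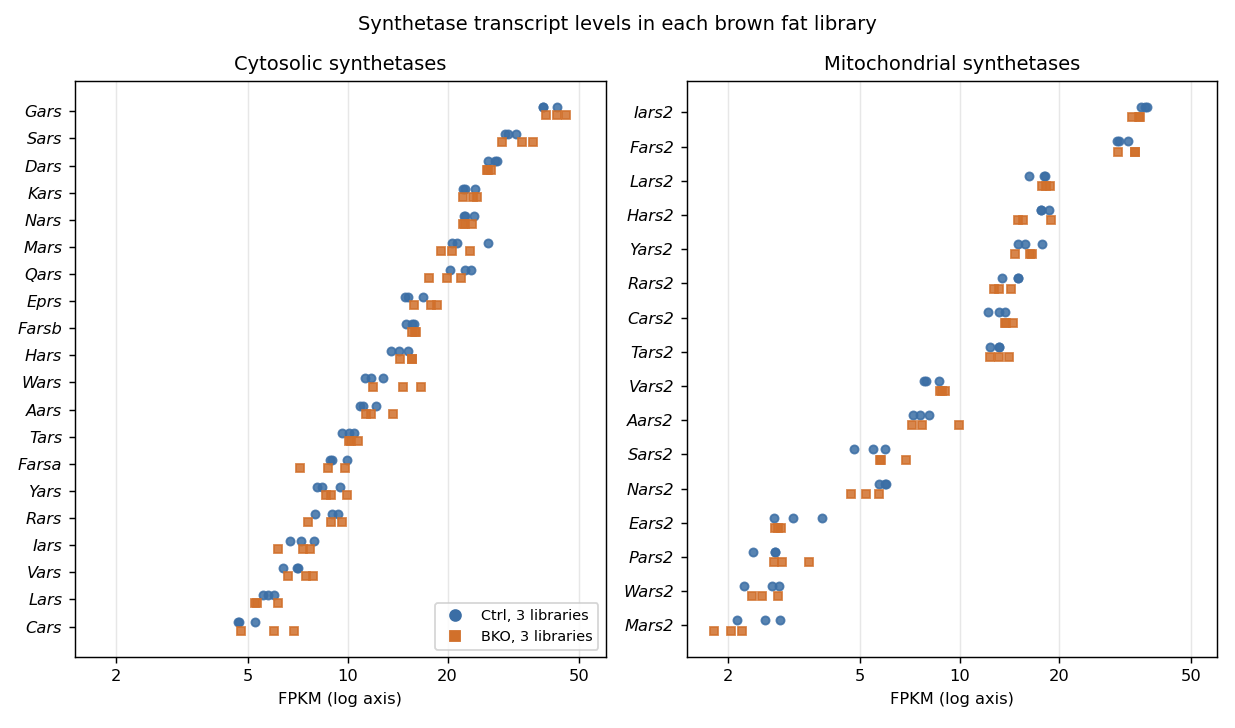
Level of each cytosolic (left) and mitochondrial (right) synthetase transcript in FPKM on a log axis, genes in order of their mean. Circles are the 3 Ctrl libraries and squares the 3 BKO libraries, and the symbols of the groups intermix for 32 of the 36 genes.

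The mitochondrial enzymes covered a wider span, 15.5-fold from the highest to the lowest mean. Iars2, the mitochondrial isoleucyl-tRNA synthetase, reached 35.2 ± 1.23 FPKM and Fars2, the phenylalanyl enzyme, 31.7 ± 1.87 FPKM, and their ranges overlapped. Both lay above the other 14, which began with Lars2 at 17.8 FPKM and Hars2 at 17.2 FPKM. Of the 16, 8 lay below 10 FPKM. At the bottom, Ears2 (3.04 FPKM, glutamyl), Pars2 (2.85 FPKM, prolyl), Wars2 (2.59 FPKM, tryptophanyl) and Mars2 (2.27 FPKM, methionyl) overlapped with one another. In all, 11 of 15 neighbours in this order did not separate. At these low levels the log2(FPKM + 1) scale understates a change.

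For 13 amino acids the genes examined here hold 1 cytosolic and 1 mitochondrial enzyme each, which allows the levels to be set side by side. The mitochondrial transcript was higher in 6 of 6 libraries for 7 of these pairs. The ratio of mitochondrial to cytosolic level was 4.95 for isoleucine, 3.16 for leucine, 2.55 for cysteine, 1.804 for tyrosine, 1.61 for arginine, 1.28 for threonine and 1.21 for valine. The cytosolic transcript was higher in 6 of 6 libraries for 5, with a ratio of cytosolic to mitochondrial level of 9.80 for methionine, 5.57 for serine, 5.15 for tryptophan, 4.15 for asparagine and 1.51 for alanine. Histidine fell between, with Hars2 above Hars in 5 of 6 libraries. For threonine a further gene, the threonyl-tRNA synthetase-like Tarsl2, was listed but is not among the synthetases examined here. Its mean was 9.54 FPKM, beside 10.2 FPKM for Tars, so the order for threonine holds for Tars alone. Neither compartment was higher in all pairs. The ratio overlapped between Ctrl and BKO in 11 of the 13 pairs. It did not overlap for Nars2 over Nars (0.256 ± 0.00861 in Ctrl and 0.228 ± 0.0153 in BKO, SD, n = 3 per group). Nor did it overlap for Yars2 over Yars (1.87 ± 0.0106 and 1.74 ± 0.112), and both ratios were lower in BKO. For Yars2 over Yars the gap was narrow, with BKO-1 just below Ctrl-2, the lowest Ctrl library. How many of the 13 ratios would separate by chance was not computed, and neither difference was tested.

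**Figure D2:**
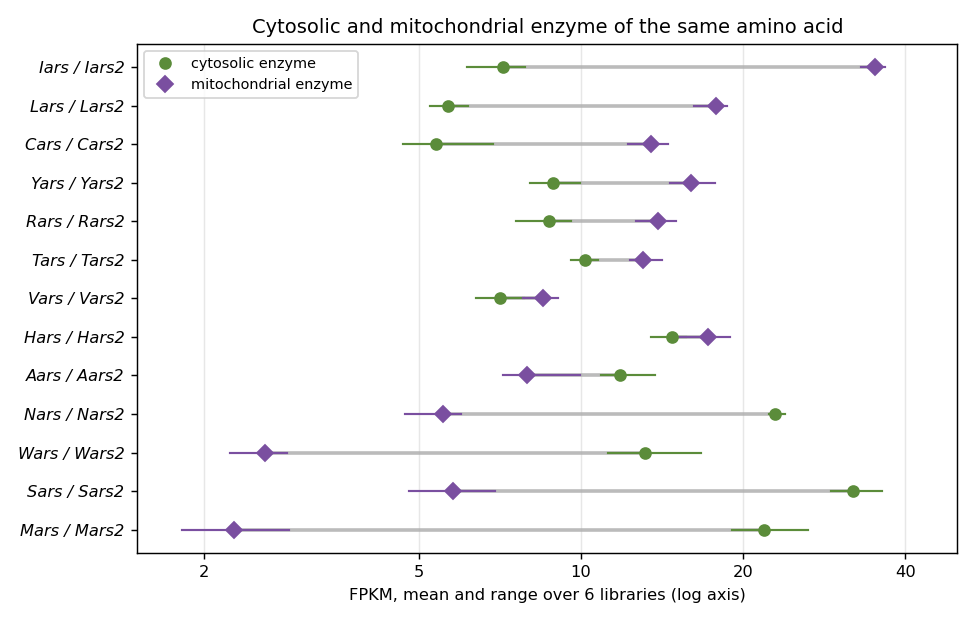
Mean level over the 6 libraries of the cytosolic (circle) and the mitochondrial (diamond) enzyme of the same amino acid, in FPKM on a log axis, with thin lines for the range over libraries. The upper 8 pairs have the higher mean in the mitochondrial enzyme, from isoleucine at 4.95-fold downward, and the lower 5 in the cytosolic enzyme, up to 9.80-fold for methionine.

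Phenylalanine, glutamate and proline do not form simple pairs. The cytosolic phenylalanyl enzyme is built from 2 kinds of subunit, Farsa and Farsb, whereas Fars2 acts as a single chain. Fars2 stood 3.61-fold above Farsa and 2.03-fold above Farsb. The subunits' own ratio, Farsb over Farsa, was 1.68 ± 0.0885 in Ctrl and 1.89 ± 0.322 in BKO (SD, n = 3 per group), with overlapping groups and the highest value in BKO-1, 2.24. Eprs encodes 1 bifunctional cytosolic enzyme for glutamate and proline, and it stood 5.54-fold above Ears2 and 5.87-fold above Pars2.

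Because ATF4 binds composite C/EBP-ATF elements, the promoter windows of these genes were searched for 1 form of that element, TGATGNAA, on both strands (TTNCATCA when read on the other strand). Windows ran from 250 bases before to 50 after the gene's start, from RefSeq on GRCm38.p6, a later build than the authors' NCBIM37. The letters were present in 1304 of 32851 windows in the whole table, 3.97%. Counted by gene instead, 221 of 8592 tested genes with a window held them, 2.57%. Among cytosolic synthetases, 13 of 20 were matched to a window and 5 of these 13 genes held the letters, while 0 of the 14 matched mitochondrial genes did. Cars, Hars, Lars, Nars, Rars, Vars, Wars, Hars2 and Pars2 were not matched. The windows of 30 bases shown here are from 4 cytosolic synthetase promoters with the element, followed by 3 genes of the amino acid response for comparison. All are on the gene's own strand, 5′ to 3′, with the element in capitals.
Gars: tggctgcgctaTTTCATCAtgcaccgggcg
Iars: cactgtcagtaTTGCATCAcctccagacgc
Tars: caggagtcccgTTGCATCAgctggttagct
Yars: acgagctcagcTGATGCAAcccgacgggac
Asns: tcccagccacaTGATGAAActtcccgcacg
Trib3: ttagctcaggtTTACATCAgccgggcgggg
Atf3: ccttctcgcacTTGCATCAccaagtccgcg
The Gars window, chr6:55037960-55037989 on the plus strand, has it 30 bases before the start. The Iars window, chr13:49682126-49682155 on the plus strand, has it 8 bases after the start. The Tars window, chr15:11399655-11399684 on the minus strand, has it 15 bases before the start. The Yars window, chr4:129189895-129189924 on the plus strand, has it 4 bases after the start. The comparison windows are chr6:7693214-7693243 for Asns, chr2:152344028-152344057 for Trib3 and chr1:191183425-191183454 for Atf3, all on the minus strand. Iars, Tars and Atf3 carry the same letters, TTGCATCA, and Yars carries their reverse complement, TGATGCAA. A match describes these letters only and is not evidence of binding.

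Loss of Bscl2 was not accompanied by a detectable change of any synthetase transcript. In the limma test with Benjamini-Hochberg adjustment over all tested genes, 0 of 36 synthetases were called higher and 0 were called lower in BKO, against a background of 0.167% of all genes called. At an unadjusted p below 0.05 the count was also 0 of 36, where 10.2% of all tested genes passed. The lowest adjusted p was 0.553, for Wars. Without BKO-3, the library that stood apart, the calls were again 0 of 36, with 3 genes at an unadjusted p below 0.05 (Wars, Cars and Hars2) and a lowest adjusted p of 0.215. Of the 36 differences, 20 were positive and 16 negative (55.6% positive, against 51.6% of all tested genes), and the median was 0.03 on the log2(FPKM + 1) scale, against 0.01 for all tested genes. The sizes ran from -0.22 for Mars2 to 0.25 for Wars. The groups did not overlap for 4 genes: Cars2 and Vars2 were higher in every BKO library (the background is 9.06% of all genes) and Iars2 and Nars2 were lower in every BKO library (6.82%).

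The intervals around these differences were narrow. Each is for 1 gene and not joint over the 36. They hold only the scatter of these samples, part of which may be technical. Every 95% interval lay within 0.58 in either direction on the log2(FPKM + 1) scale. That is 1.5-fold in FPKM + 1, and a larger fold in FPKM itself for genes of low level. Folds in this paragraph are on that scale. The lowest limit was -0.48, for Mars2, and the highest 0.53, for Wars. For 14 of the 36 the interval also lay within 1.2-fold, among them Dars (-0.19 to 0.10), Nars (-0.16 to 0.15), Kars (-0.14 to 0.19) and Iars2 (-0.21 to 0.07). That count of 14 fell to 5 to 12 with 1 library left out (5 without Ctrl-2, 7 without Ctrl-1, 8 without BKO-3), to 9 with the replicate block and to 10 with a pseudocount of 0.1. With that pseudocount Mars2 reached -0.67, and 35 of 36 intervals then lay within 1.5-fold. Leaving out 1 library in turn left 34 to 36 within 1.5-fold. Synthetase transcripts varied little between libraries of 1 group: the pooled coefficient of variation within groups had a median of 7.59%, from 2.33% for Farsb to 13.6% for Cars, against a median of 10.3% over 11378 of the tested genes. These medians were not matched for level, and the median level was 13.1 FPKM for the synthetases and 7.47 FPKM for all tested genes.

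**Figure D3:**
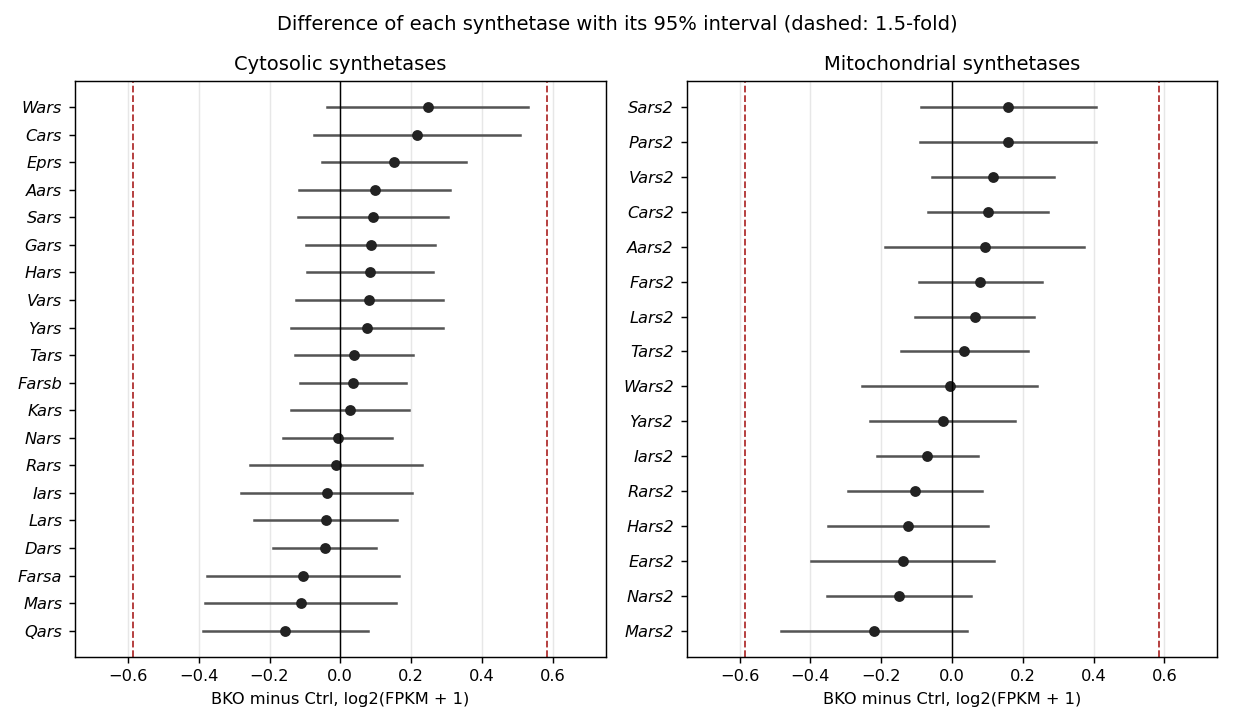
Fitted difference between BKO and Ctrl on the log2(FPKM + 1) scale for each synthetase (points) with its 95% interval (lines). All 36 intervals lie between the dashed lines that mark 1.5-fold on that scale, and the fitted values run from -0.22 for Mars2 to 0.25 for Wars.

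The cytosolic enzymes with the smallest p were those for tryptophan, glutamate and proline, and cysteine. Wars, the tryptophanyl enzyme and a gene also known for its induction by interferon gamma, had 12.7, 11.2 and 11.7 FPKM in Ctrl and 14.7, 16.7 and 11.9 FPKM in BKO. BKO-1 and BKO-2 were above every Ctrl library, whereas BKO-3 lay inside the Ctrl range. The difference was 0.25 (SE 0.122, adjusted p = 0.553). Cars had 4.67, 5.25 and 4.696 FPKM in Ctrl and 5.97, 6.87 and 4.77 FPKM in BKO. Its pattern was the same, with BKO-3 inside the Ctrl range and the other BKO libraries above it, and a difference of 0.22 (SE 0.124, adjusted p = 0.617). Eprs had 15.1, 14.8 and 16.8 FPKM in Ctrl and 15.9, 18.6 and 17.9 FPKM in BKO. Here BKO-1 lay within the Ctrl range and the other BKO libraries above it, for a difference of 0.15 (SE 0.0868, adjusted p = 0.613). Without BKO-3, Wars differed by 0.37 (adjusted p = 0.215) and Cars by 0.34 (adjusted p = 0.264), and without BKO-2 by 0.14 and 0.11 (adjusted p = 0.836 and 0.893), so neither passed in either case.

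Aars, Gars, Sars, Hars and Vars also had positive differences of 0.08 to 0.10. Gars measured 38.9, 38.7 and 42.6 FPKM in Ctrl and 42.8, 45.5 and 39.6 FPKM in BKO, with BKO-1 and BKO-2 above the Ctrl range. Sars measured 32.2, 29.8 and 30.4 FPKM and 33.7, 36.3 and 29.2 FPKM in the same order, and Aars, the alanyl enzyme, 10.9, 11.1 and 12.2 FPKM and 11.7, 13.7 and 11.4 FPKM. In all 3 genes BKO-2 held the highest value of the 6 libraries, and the groups overlapped. Without BKO-2 the differences were 0.040 for Gars, 0.024 for Sars and 0.020 for Aars. Hars, the histidyl enzyme, stood at 14.3, 13.5 and 15.1 FPKM in Ctrl and 14.4, 15.7 and 15.7 FPKM in BKO, and Vars, the valyl enzyme, at 7.095, 7.01 and 6.38 FPKM and 7.83, 7.45 and 6.601 FPKM. Their groups overlapped as well, with adjusted p between 0.763 and 0.811 for these 5 genes. Of the 5 cytosolic synthetase promoters that held the element, 0 belonged to a gene that passed, also at an unadjusted p below 0.05. The median difference was 0.08 for these 5 genes and -0.01 for the 8 matched cytosolic genes without it. Cytosolic genes not matched to a window are in neither median, and their differences ran from -0.04 (Lars) to 0.25 (Wars). The contrast by element was not tested.

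Eprs, Iars, Lars, Mars, Qars, Rars, Kars and Dars are bound together in the multisynthetase complex, a particle held by scaffold proteins. Of these 8 enzymes, 2 had positive and 6 negative differences, with a median of -0.04, and 0 were called. The 12 cytosolic genes outside the complex had 10 positive and 2 negative differences and a median of 0.08, again with 0 called, and the 2 sets were not tested against each other. Qars, the glutaminyl enzyme of the complex, measured 23.5, 20.4 and 22.6 FPKM in Ctrl and 17.6, 19.96 and 22.02 FPKM in BKO. BKO-1 and BKO-2 lay below the Ctrl range and BKO-3 within it, for a difference of -0.15 (SE 0.0989, adjusted p = 0.651) that came to -0.075 without BKO-1. Mars, the methionyl enzyme, measured 26.4, 21.4 and 20.7 FPKM in Ctrl and 19.04, 23.4 and 20.6 FPKM in BKO, with overlapping groups and Ctrl-1 highest. Dars (26.3 to 28.1 FPKM), Kars (22.2 to 24.5), Lars (5.24 to 6.16), Iars (6.14 to 7.88) and Rars (7.57 to 9.58) had overlapping groups and differences between -0.04 and 0.03. Iars, Kars and Rars changed sign when 1 library was left out. BKO-1 was the lowest of the 6 libraries for 5 of the 8 complex enzymes.

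The remaining cytosolic genes were Farsa, Farsb, Nars, Tars and Yars. Farsa, the alpha subunit of the phenylalanyl enzyme, ranged from 7.16 to 9.93 FPKM with a difference of -0.11, and Yars, the tyrosyl enzyme, from 8.05 to 9.95 FPKM with a difference of 0.08. Farsb, the beta subunit (14.96 to 16.1 FPKM), Tars, the threonyl enzyme (9.58 to 10.8 FPKM), and Nars, the asparaginyl enzyme (22.3 to 23.96 FPKM), had differences between -0.01 and 0.04. All 5 had overlapping groups, and the signs for Farsa and Nars changed when 1 library was left out.

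Of the mitochondrial enzymes, Mars2 had the smallest p. It measured 2.58, 2.13 and 2.87 FPKM in Ctrl and 1.82, 2.04 and 2.2 FPKM in BKO. The BKO libraries covered a lower range that reached into the Ctrl range through BKO-3, and the difference was -0.22 (SE 0.112, adjusted p = 0.57). Nars2, the asparaginyl enzyme, measured 5.97, 5.72 and 5.98 FPKM in Ctrl and 5.23, 5.72 and 4.72 FPKM in BKO. The highest BKO library, BKO-2 at 5.717 FPKM, lay just below the lowest Ctrl library, Ctrl-2 at 5.722 FPKM, so the groups were separate by a narrow gap, with a difference of -0.15 (SE 0.0872, adjusted p = 0.623). Iars2 was the other gene with lower BKO values throughout, at 36.2, 35.3 and 36.7 FPKM in Ctrl and 35.02, 33.2 and 34.8 FPKM in BKO. That gap was small too, with a difference of -0.07 (SE 0.06103, adjusted p = 0.755), or 95.2% of the Ctrl mean.

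Vars2, the valyl enzyme, measured 7.798, 8.65 and 7.94 FPKM in Ctrl and 8.85, 9.06 and 8.75 FPKM in BKO, every BKO library being higher. Its difference was 0.12 (SE 0.0733, adjusted p = 0.65). Cars2, the cysteinyl enzyme, measured 13.1, 13.7 and 12.2 FPKM in Ctrl and 14.5, 13.7 and 13.8 FPKM in BKO. The lowest BKO value, 13.72 FPKM, lay just above the highest Ctrl value, 13.67 FPKM, and the difference was 0.10 (adjusted p = 0.691). The separations depended on how libraries were scaled: with median ratio scaling only Nars2 still had groups that did not overlap, and with quantile normalization Ears2, Mars2 and Nars2 did, all lower in BKO. Sars2, the seryl enzyme, had 5.46, 4.803 and 5.96 FPKM in Ctrl and 6.91, 5.76 and 5.79 FPKM in BKO, and Pars2 had 2.38, 2.77 and 2.76 FPKM and 3.52, 2.91 and 2.76 FPKM. BKO-1 was the highest library for both, the groups overlapped, and both differences were 0.16 (adjusted p = 0.662 and 0.666).

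Among the partners of the cytosolic genes just described, Hars2 measured 18.7, 17.6 and 17.6 FPKM in Ctrl and 14.97, 15.5 and 18.9 FPKM in BKO. BKO-1 and BKO-2 lay below all Ctrl libraries and BKO-3 above them, so the difference of -0.13 (adjusted p = 0.708) rested on a split BKO group. Ears2 had 3.83, 3.14 and 2.76 FPKM in Ctrl and 2.78, 2.88 and 2.83 FPKM in BKO, a group of near equal BKO values beside a wide Ctrl range (difference -0.14, adjusted p = 0.719). Wars2 had 2.24, 2.85 and 2.71 FPKM in Ctrl and 2.83, 2.36 and 2.54 FPKM in BKO, with a difference of -0.01. The differences of Wars and Wars2 were not tested against each other. The other mitochondrial genes overlapped between groups: Aars2 (7.17 to 9.95 FPKM), Fars2 (29.9 to 33.9), Lars2 (16.2 to 18.7), Rars2 (12.7 to 15.04), Tars2 (12.3 to 14.1) and Yars2 (14.7 to 17.7). Their differences ran from -0.11 for Rars2 to 0.09 for Aars2, which had its highest value in BKO-1. The signs for Aars2, Tars2, Wars2 and Yars2 changed when 1 library was left out.

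Synthetases fall into 2 unrelated structural classes, I and II, that bind ATP with different folds. The split by class did not separate the differences in the cytosol, where the median was 0.03 for 10 class I genes and 0.04 for 10 class II genes, with Eprs counted in class I although its prolyl part belongs to class II. In mitochondria, 3 of 9 class I genes and 5 of 7 class II genes had positive differences, with medians of -0.03 and 0.08. No class had a called gene, and the classes were not tested against each other.

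Summed over genes, the level of cytosolic synthetase transcripts overlapped between the groups. It came to 325, 309 and 325 FPKM in Ctrl-1 to Ctrl-3 and to 317, 347 and 318 FPKM in BKO-1 to BKO-3. BKO-2 was the only library above the Ctrl range, and BKO-1 and BKO-3 lay inside it. The mitochondrial pool was 196, 198 and 197 FPKM in Ctrl and 202, 196 and 193 FPKM in BKO, with overlapping groups. The ratio of the cytosolic to the mitochondrial sum was 1.62 ± 0.0569 in Ctrl and 1.66 ± 0.103 in BKO (SD, n = 3 per group).

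The BKO libraries did not move together. BKO-2 lay above the Ctrl mean in 18 of 20 cytosolic genes and above all 3 Ctrl libraries in 12, and it held the highest value of the 6 libraries in 9. BKO-1 lay above the Ctrl mean in 11 of 20 and BKO-3 in 8 of 20. In the mitochondrial set the order was another, with BKO-1 above the Ctrl mean in 10 of 16 genes, BKO-2 in 9 and BKO-3 in 6. BKO-2 also had a higher mean level of skeletal muscle markers (4.99 on the log2 scale) than BKO-1 (4.01) and BKO-3 (3.68), while Ctrl-1 had the highest of all (5.53) and Ctrl-2 the lowest (3.24). The part of muscle in the values of BKO-2 was not tested. With the muscle score as a covariate the cytosolic median stayed at 0.04. The mean score was close in Ctrl (4.20) and BKO (4.22), so this covariate could hardly move a difference between the groups. The unchanged median therefore says nothing about BKO-2. Without BKO-2 the cytosolic median was 0.019.

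**Figure D4:**
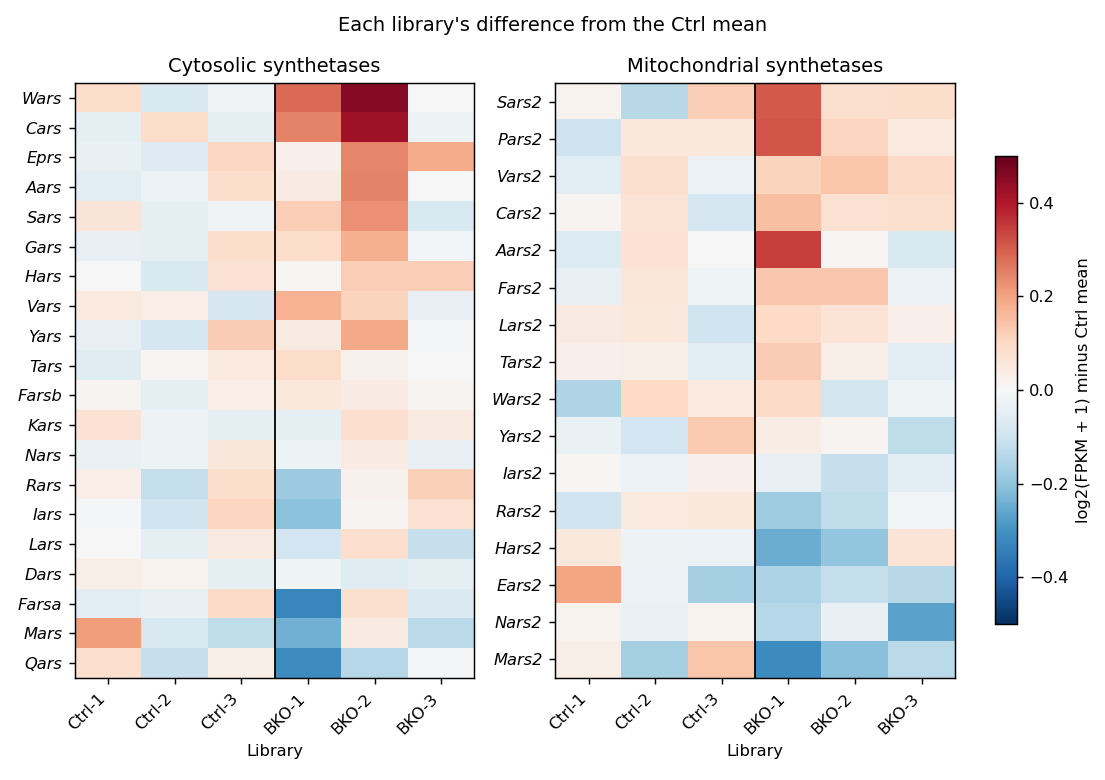
Difference of each library from the Ctrl mean on the log2(FPKM + 1) scale for every cytosolic (left) and mitochondrial (right) synthetase, red for higher and blue for lower, genes in order of their fitted difference. The column of BKO-2 is red for 18 of 20 cytosolic genes, and no BKO column is of 1 colour.

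The partners of the synthetases gave 0 calls as well. The 12 tested genes cover complex scaffolds, tRNA editing and amidation and related steps, with Tarsl2 among them. Of these, 3 had positive and 9 negative differences with a median of -0.06. At an unadjusted p below 0.05, 1 passed in each direction (6.63% of all genes passed higher and 3.52% lower). Gatc, a subunit of the mitochondrial amidotransferase that turns glutamate into glutamine on the tRNA charged by Ears2, measured 14.3, 14.7 and 15.1 FPKM in Ctrl and 12.6, 12.1 and 12.9 FPKM in BKO. Every BKO library was lower, with a difference of -0.21 (SE 0.06702, adjusted p = 0.355). Aarsd1, a relative of the editing domain of Aars that clears mischarged alanyl-tRNA, measured 18.8, 16.6 and 15.4 FPKM in Ctrl and 20.3, 20.04 and 20.5 FPKM in BKO. Every BKO library was higher, with a difference of 0.25 (SE 0.0839, adjusted p = 0.387).

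The steps after charging were similar. Of 20 cytosolic initiation and elongation factors, 0 were called and 1 had an unadjusted p below 0.05, where 0.167% and 10.2% of all tested genes passed. The 1 gene was Eef1b2, an exchange factor of the elongation factor that delivers charged tRNA (125, 112 and 113 FPKM in Ctrl and 128, 143 and 130.4 FPKM in BKO, difference 0.19, adjusted p = 0.46). Eif2s3x, a subunit of the initiation factor eIF2, had the next smallest p (27.4, 24.6 and 26.7 FPKM and 23.4, 23.6 and 26.2 FPKM, difference -0.10, adjusted p = 0.713). Of 19 genes of mitochondrial translation and tRNA processing, 0 were called and 1 had an unadjusted p below 0.05, beside the same shares of all genes. This was Lrpprc, which stabilizes mitochondrial mRNA, at 35.4, 33.5 and 35.4 FPKM in Ctrl and 29.9, 29.3 and 32.9 FPKM in BKO, every BKO library being lower (difference -0.18, adjusted p = 0.468). Gfm2, a mitochondrial ribosome recycling factor, measured 21.8, 21.4 and 23.3 FPKM and 21.3, 19.7 and 20.4 FPKM (difference -0.11, adjusted p = 0.632).

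The list of amino acid response genes, which holds enzymes, regulators and factors known to respond to ATF4, had a larger median difference than the synthetases, a contrast that was not tested. Of 23 genes in the list, 22 were listed and 21 tested. Of these, 1 was called higher, 0 lower, and 10 had a positive difference at an unadjusted p below 0.05 against 6.63% of all genes. The median was 0.34, and 19 of 21 differences were positive. Mthfd2 and Chac1, both positive, had Ctrl means of 0.821 and 0.742 FPKM and reached the mean needed for the test through BKO. Phgdh, the first enzyme of serine synthesis, measured 2.96, 2.495 and 2.03 FPKM in Ctrl and 6.997, 6.54 and 5.396 FPKM in BKO. Every BKO library lay above every Ctrl library, and Phgdh rose 2.53-fold (1.07 on the log2 scale, SE 0.132, adjusted p = 0.0439). That call was lost when any 1 library was left out, with adjusted p from 0.0517 to 0.220 (0.0518 without BKO-3), and also with the muscle score as a covariate (0.0589). Sesn2, an inhibitor of mTORC1 signalling, measured 7.86, 7.92 and 8.098 FPKM and 11.8, 14.9 and 13.99 FPKM (difference 0.69, adjusted p = 0.0568), and it passed with array weights (0.0335) and robust empirical Bayes (0.0323).

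Within that list the differences varied in size. Trib3, a pseudokinase, measured 2.65, 2.698 and 1.85 FPKM in Ctrl and 8.88, 9.35 and 3.83 FPKM in BKO, the lowest BKO value being that of BKO-3 (difference 1.23, adjusted p = 0.248). Ddit3, the transcription factor CHOP, measured 13.3, 13.4 and 12.1 FPKM and 14.6, 21.3 and 16.01 FPKM (difference 0.38, adjusted p = 0.416). Both had separate groups but did not pass. Without BKO-3, Trib3 passed (adjusted p = 0.0285). Atf4 itself overlapped between groups at 74.2, 63.1 and 79.8 FPKM in Ctrl and 68.6, 91.4 and 75.2 FPKM in BKO, with a difference of 0.11 (adjusted p = 0.826) that changed sign without BKO-2. Asns, asparagine synthetase, which makes the substrate of Nars and Nars2, was nearly constant at 29.5, 29.6 and 30.1 FPKM in Ctrl and 31.1, 30.9 and 28.8 FPKM in BKO. Its difference was 0.02, with a 95% interval of -0.12 to 0.17. Its promoter is among those shown above with the element, as are those of Trib3 and Atf3. In the list, 7 of 22 matched genes held it.

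Genes that bring amino acids into the cell and genes of protein folding in the endoplasmic reticulum were described in the same way. Of 6 tested amino acid transporters, 0 were called and 2 had a positive difference at an unadjusted p below 0.05 (6.63% of all genes). Slc7a8, a carrier of neutral amino acids, measured 1.89, 1.37 and 3.38 FPKM in Ctrl and 3.74, 4.405 and 8.43 FPKM in BKO (difference 1.002, adjusted p = 0.343). Slc1a5, a glutamine carrier, measured 238, 229 and 182 FPKM and 255, 277 and 246 FPKM (difference 0.27, adjusted p = 0.484), and without Ctrl-3, its lowest library, the difference was 0.15. In both genes every BKO library was above every Ctrl library. Of 22 genes of the unfolded protein response, 0 were called, 13 were higher and 0 lower at an unadjusted p below 0.05 (6.63% and 3.52% of all genes), and the median was 0.25. Sdf2l1, a component of the chaperone complex of the endoplasmic reticulum, measured 0.982, 1.16 and 0.712 FPKM in Ctrl and 7.44, 9.66 and 2.83 FPKM in BKO (difference 1.85, adjusted p = 0.171). BKO-3 was the lowest BKO library, and without it Sdf2l1 passed, with a difference of 2.29 (adjusted p = 0.00969). The Ctrl mean of Sdf2l1, 0.951 FPKM, lay below the 1 FPKM needed, so it entered the test through BKO. Hsp90b1, a chaperone, measured 63.6, 57.98 and 65.8 FPKM and 91.5, 90.8 and 78.6 FPKM (difference 0.47, adjusted p = 0.17). Sdf2l1 and Hsp90b1 both passed with array weights (adjusted p = 0.0373). Hspa5, the chaperone BiP, had overlapping groups (85.5, 76.1 and 101 FPKM and 101, 132 and 95.2 FPKM, difference 0.31, adjusted p = 0.534).

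**Figure D5:**
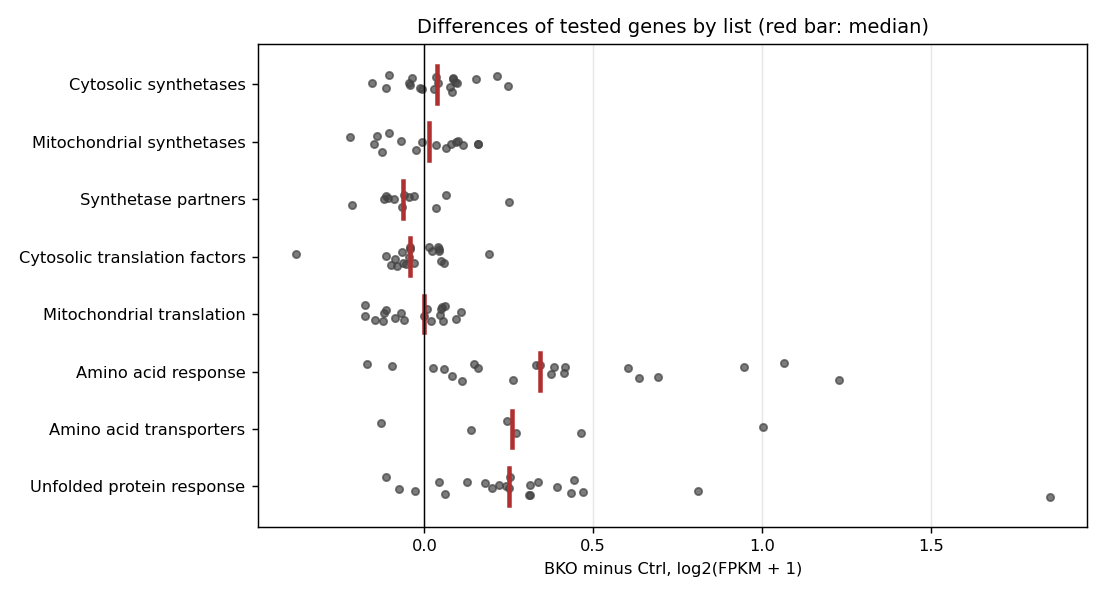
Fitted differences between BKO and Ctrl on the log2(FPKM + 1) scale for the tested genes of 8 lists, each point 1 gene and each red bar the median of its list. Synthetases sit close to zero, with medians of 0.04 and 0.01, whereas the amino acid response has a median of 0.34 and the unfolded protein response of 0.25.

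Macrophage markers moved with the groups, and their part in the amino acid and folding genes was not tested. Of 18 tested macrophage markers, 5 were called higher (Lyz2, Gpnmb, Tyrobp, Ms4a7 and Ctss, against 0.158% of all genes), 16 had a positive difference at an unadjusted p below 0.05 (6.63% of all genes) and the median difference was 1.002. Gpnmb and Ms4a7 had Ctrl means of 0.255 and 0.573 FPKM and reached the mean needed for the test only through BKO. The filter thus favoured markers that were high in BKO, and these counts are description only. Each of the 5 calls was lost when any one of Ctrl-2, Ctrl-3, BKO-1 or BKO-2 was left out, and those of Tyrobp, Ms4a7 and Ctss also without BKO-3. With 1 library left out the adjusted p reached 0.155 for Gpnmb, 0.189 for Tyrobp and Ms4a7, and 0.222 for Ctss. The Ctss call also depended on settings with all 6 libraries. It was lost with a pseudocount of 0.1 (adjusted p = 0.0582), no filter (0.0508) or the muscle score (0.053), among others. It was kept with array weights (0.0164) and the replicate block (0.0177), among others. Cd163, a scavenger receptor of resident macrophages, went the other way below the mean needed for the test, at 1.23, 0.7804 and 1.102 FPKM in Ctrl and 0.329, 0.507 and 0.568 FPKM in BKO, every BKO library being lower. The summed level of all 20 listed markers was 71.7 to 118 FPKM in Ctrl and 210 to 279 FPKM in BKO, with no marker at 0. Lyz2, the lysozyme of macrophages, measured 30.9, 20.4 and 20.03 FPKM in Ctrl and 96.3, 77.97 and 78.3 FPKM in BKO (adjusted p = 0.0195, and 0.00313 to 0.0929 with 1 library left out). Summed synthetase levels overlapped between the groups, as given above. Of 14 brown adipocyte markers 0 were called, 1 was higher and 1 lower at an unadjusted p below 0.05, and the median was 0.05. Of 15 tested skeletal muscle markers 0 were called and 0 had an unadjusted p below 0.05, with a median of 0.01, and the same counts held for 5 erythroid markers, with a median of -0.14.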

How the data were processed

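RNA from brown adipose tissue was measured in 6 libraries, 3 Ctrl and 3 BKO. Trizol was used for extraction and the TruSeq RNA kit v2 for the libraries, per the labels. The kit does not mark strand, so reads of overlapping antisense genes cannot be separated. The deposited values are FPKM per gene made by the authors. They come from CASAVA 1.8, TopHat2 2.0.12 and Cufflinks 2.2.1 with NCBIM37, per the submitters' processing notes. The annotation and the options of each tool are not given in the sources used. FPKM are not counts, so the depth is unknown and no count model was used. Columns were assigned by the sample descriptions, in which names starting with MT belong to Ctrl and names starting with WT to BKO. The level of Bscl2 checked this. No column was left without a sample (0 columns). BKO-3 holds no value above 0 below 0.486 FPKM, so the listing looks filtered on it.

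Genes entered the test if their mean over the 6 libraries reached 1 FPKM, so a gene low in 1 group could enter through the other. The test ran on log2(FPKM + 1). It used limma 3.58.1 (R 4.3.3) with a trend of the variance on intensity and Benjamini-Hochberg adjustment over all tested genes at 0.05. Differences in the text are BKO minus Ctrl on that scale, and intervals are at 95%. The fit was tested on simulated data. Members and gene lists were chosen with earlier results of these data known. Per-library values are given for the 10 cytosolic and 5 mitochondrial members with the smallest p, the most and least abundant members, the partners of the 5 cytosolic members with the smallest p, the leading genes of each other list and a set given whatever their test. Sesn2, Ctss and Cd163 were named after their values were seen. The alternatives changed the pseudocount, the filter, the scaling, the empirical Bayes step or the library weights, added a muscle score or the replicate block, or left out 1 library. Promoter sequences come from RefSeq (GRCm38.p6), and genes were matched to them by current symbol or by an older symbol that belongs to only 1 current gene. The window of 1 promoter is not reported here.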

Additional observations from a re-analysis of the deposited data

How the results depend on the processing

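No synthetase was called in any of the 17 alternatives (0 higher and 0 lower in each), and the lowest adjusted p over them was 0.207, for Wars with array weights. At an unadjusted p below 0.05, Wars and Sars2 passed with array weights, Mars2 without Ctrl-2, and Wars, Cars and Hars2 without BKO-3. Counts over all genes moved more. The 18 higher calls became 11 with no filter, 9 at a mean of at least 5 FPKM, 32 with robust empirical Bayes, 48 with array weights and 8 with the muscle score, and 5 to 30 with 1 library left out (30 lacking BKO-3, 11 lacking BKO-2, 11 lacking Ctrl-3, 8 lacking Ctrl-2 and 5 lacking BKO-1). The 1 lower call became 6 with array weights, 2 with the replicate block and 1 to 3 with 1 library left out. Cytosolic genes higher in BKO with separate groups went from 0 to a range of 0 to 6 with 1 library left out (6 without BKO-3, 5 without Ctrl-3), where fewer libraries also raised the share over all genes, to 17.3% and 13.4%. The mitochondrial count of 2 became 0 with median ratio scaling, 0 with quantile normalization and 2 to 5 with 1 library left out (5 without BKO-3). The mitochondrial median of 0.01 ranged from -0.045 (without BKO-1) to 0.052. Small differences changed sign: with array weights Nars became 0.0090, Rars 0.0053 and Yars2 0.048, and with 1 library left out the ranges were -0.20 to 0.0047 (Farsa), -0.10 to 0.046 (Iars), -0.0015 to 0.066 (Kars), -0.032 to 0.021 (Nars), -0.080 to 0.072 (Rars), -0.033 to 0.18 (Aars2), -0.012 to 0.079 (Tars2), -0.081 to 0.044 (Wars2), -0.075 to 0.039 (Yars2) and -0.0036 to 0.20 (Atf4). The cause of these shifts was not tested. Replicate numbers were shared between groups, but same-numbered libraries deviated together in 1 of 3 cases (correlations of 0.196, -0.104 and -0.100), and of the Ctrl libraries Ctrl-1 alone correlated best with its own number, so the numbers were not treated as pairs. With the replicate block 23 genes in all were called higher, and the synthetases had 0 calls and a lowest adjusted p of 0.567. The cytosolic median of 0.04 ranged from 0.019 (without BKO-2) to 0.056 with 1 library left out. Depth is unknown, so what it limits cannot be given.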

Other observations

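Values listed for the mitochondrial tRNAs themselves, the substrates of the mitochondrial enzymes, were very uneven between libraries. Whether FPKM of such short transcripts reflect amounts of tRNA was not tested, so the values are given only as listed. The row mt-Ts1 was at 0 in every library. Of 17 such rows, 10 were above 0 in every library, 7 were listed at 0 in at least 1 library, and 15 were highest in BKO-3. The groups did not separate for any of the 17. The row for the proline tRNA, mt-Tp, measured 43912, 31459 and 51930 FPKM in Ctrl and 88563, 44704 and 175502 FPKM in BKO (limma adjusted p = 0.499). The row for the tyrosine tRNA, mt-Ty, measured 430467, 218254 and 294141 FPKM in Ctrl and 278799, 174985 and 861875 FPKM in BKO (adjusted p = 0.946).

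Some genes of amino acid supply were listed below the mean of 1 FPKM needed for the test. Aldh18a1, an enzyme of proline synthesis, was listed at 0.451, 0.528 and 0.574 FPKM in Ctrl and 1.28, 1.88 and 0.8996 FPKM in BKO. Slc1a4, a carrier of neutral amino acids, was listed at 0.483, 0.356 and 0.513 FPKM in Ctrl and 1.103, 1.03 and 0.965 FPKM in BKO. Every BKO library was above every Ctrl library in both genes, and neither was tested. Slc7a1, a carrier of cationic amino acids (0.547, 0.448 and 0.532 FPKM in Ctrl and 0.713, 0.840 and 0.573 FPKM in BKO), and Slc7a7 (0.752, 0.816 and 0.538 FPKM, and 0.843, 0.925 and 0.841 FPKM) showed the same order. Over all listed genes, with no filter, 9.77% had every BKO library above every Ctrl library. Because the listing looks filtered on BKO-3, low genes that were lower in BKO may be missing from it.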
